A study of Mus musculus with 4 samples.

Results

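Actin and its closest partners were examined in Neuro2A cells, a mouse neuroblastoma line, after induction of the homeodomain transcription factor Prox1. The genes were 9 of the 49548 in the authors' table, taken by symbol: the actins Actb and Actg1, the filamins Flna and Flnc, the β-thymosins Tmsb4x and Tmsb10, the profilins Pfn1 and Pfn2, and the cofilin Cfl1. All 9 were found. The members were chosen by name with their normalised counts in all 4 libraries already known, so the values of the 9 genes are given as a description, without a test of their own. There were 2 libraries from Prox1-Tet-On cells, a stable line in which doxycycline switches on Prox1, and 2 from GFP-Tet-On cells, in which it switches on green fluorescent protein. Both lines were kept under G418 and hygromycin B, and doxycycline was given to both at 1 µg/mL. The genotype label names only the transgene. Since the transgenes were carried by separate lines, effects of line and transgene cannot be told apart, and nothing states that replicates came from separate cultures.

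Cytoplasmic actin is made from Actb and Actg1, which encode nearly identical proteins, and it cycles between free monomers and filaments. β-Thymosins bind monomers and hold them in reserve, profilins deliver monomers to growing filament ends, and cofilin severs and disassembles old filaments. Filamins are long rod-shaped dimers that crosslink filaments into networks and tie them to membrane receptors. In growing axons this machinery moves the growth cone.

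The deposited values are normalised counts of 3′ messenger RNA reads, which come from the end of each transcript. The libraries summed to 7301259 and 6798014 normalised counts in Prox1 cells, against 7123722 and 7683100 in GFP cells. The rounding of the values corresponded to an estimated 7440000 and 6600000 reads in Prox1 cells, against 5910000 and 9610000 in GFP cells. Prox1 itself was at 1304 and 2505 in Prox1 cells, against 2 and 3 in GFP cells. All 10 defining genes of sympathetic neuroblastoma that were looked up reached 10 normalised counts in at least 1 library. Summed over the list they stood at 7416 and 6376 in Prox1 cells, against 11600 and 10948 in GFP cells. Smooth muscle markers, which include contractile actins, summed to 6 and 2 in Prox1 cells, against 0 and 2 in GFP cells. Among 7 fibroblast markers, 2 reached 10 counts in a library, Fn1 and Pdgfra, and Col3a1 and Lum were at 0 in all 4 libraries. The list summed to 310 and 256 in Prox1 cells, against 431 and 309 in GFP cells, of which Fn1 alone gave 272 and 251, against 429 and 297. Among 6 skeletal and cardiac muscle markers, Myh3 alone reached 10, and Myog was at 0. They summed to 343 and 378 in Prox1 cells, against 347 and 232 in GFP cells, of which Myh3 gave 335 and 369, against 341 and 230. The 4 epithelial markers summed to 7 and 11, against 0 and 1, and the 6 blood and macrophage markers to 3 and 1, against 5 and 1. The part of these shifts in the results was not tested. In bulk samples, fewer cells of a type and less RNA per cell cannot be told apart.

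Reads can be assigned to a gene only where its sequence differs from that of its relatives. For 3′ reads the comparison of the last 500 bases, given below, bears on this. The starts of the coding sequences of the 2 closest pairs are shown as an illustration, from GENCODE on mm10, 5′ to 3′ on the minus strand. Capitals mark the bases that differ within a pair, 8 of 30 in each.
Actb (chr5:142905657-142905686): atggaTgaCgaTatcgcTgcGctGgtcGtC
Actg1 (chr11:120348062-120348091): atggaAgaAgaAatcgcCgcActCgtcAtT
Tmsb4x (chrX:167208007-167208036): atgTcTgacaaAccCgaTatggCTgaGatc
Tmsb10 (chr6:72957983-72958012): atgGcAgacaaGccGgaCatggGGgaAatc
Over the whole coding sequence Actb and Actg1 were identical at 88.6% of 1125 bases and shared 30 stretches of 50 bases. Tmsb4x and Tmsb10 were identical at 69.7% of 132 bases, and Pfn1 and Pfn2 at 61.7% of 420 bases. Flna was identical to Flnc at 67.7% of 8199 aligned coding positions, gaps included. No stretch of 50 bases was shared within the thymosin, profilin or filamin pairs. In the last 500 bases, where 3′ reads fall, 0 stretches of 50 bases were shared between Actb and Actg1 as well.

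The clearest contrast lay within families. Flnc and Tmsb4x were almost absent from Prox1 cells and present in GFP cells, while their relatives Flna and Tmsb10 were abundant in all 4 libraries. The actins were lower in Prox1 cells, and Cfl1 and Pfn1 were higher, by less than 2-fold in each case. Group values did not overlap in 7 of the 9 genes, 5 lower and 2 higher in Prox1 cells. Among 13290 genes averaging 10 normalised counts or more over the libraries, 58.8% did not overlap, 29.9% being lower and 28.9% higher. limma, run on log2(normalised count + 1) over those 13290 genes at an adjusted p under 0.05, called 3 of the 9 members. These were Flnc and Tmsb4x downward and Cfl1 upward. All 9 reached the minimum mean, Flnc only through its GFP libraries. It called 16.0% of all genes tested, 8.41% downward and 7.57% upward. With any 1 of the 4 libraries left out it called 0 of the 9 and 0 of all genes tested. The authors' deposited table passed 2 of the 9, Flnc and Tmsb4x, and 4.62% of the 11933 genes for which it gives an adjusted p. Because these same values chose the members, the shares are given side by side and nothing is read from them.

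**Figure D1:**
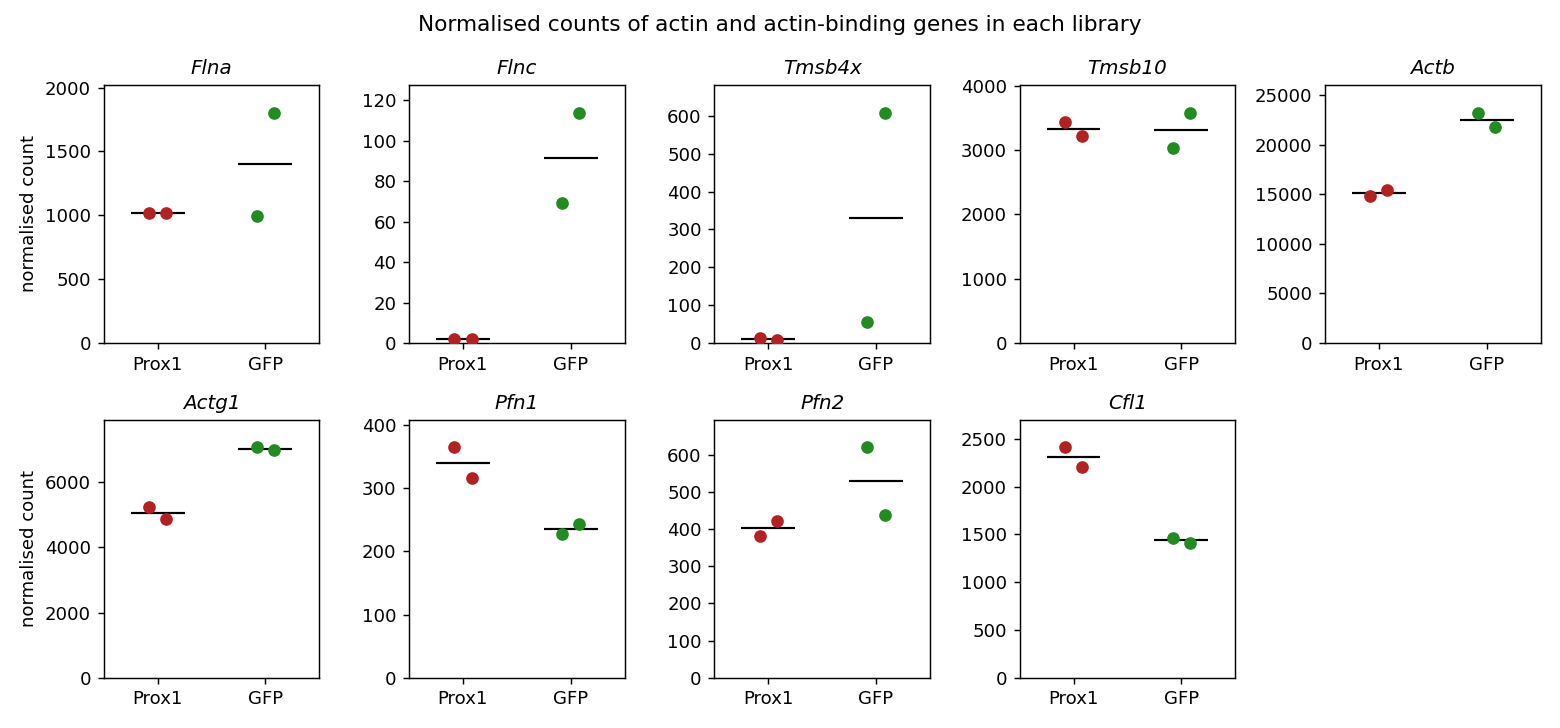
Normalised counts (vertical axes, each from 0) of the 9 genes in the Prox1 libraries (red) and the GFP libraries (green). Points are libraries and black lines are means of 2. Flnc stood at 2 in both Prox1 libraries, against 69 and 114 in GFP libraries, and Tmsb4x at 14 and 9, against 54 and 609.

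The actins formed the most even pair. Actb (ENSMUSG00000029580, mm10 chromosome 5, positions 142903115 to 142906754, minus strand) was at 14815 and 15478 normalised counts in Prox1 cells, against 23250 and 21825 in GFP cells. Actg1 (ENSMUSG00000062825, chromosome 11, positions 120345690 to 120348542, minus strand) was at 5248 and 4887, against 7074 and 6980. In both genes the Prox1 libraries lay below the GFP libraries, with replicates within 1.07-fold of each other. The mean of Actb was 15146.5 ± 469 in Prox1 cells and 22537.5 ± 1007.6 in GFP cells (SD, n = 2 each), 67.2% of the GFP mean. The mean of Actg1 was 5067.5 ± 255 and 7027 ± 66.5 (SD, n = 2 each), 72.1% of the GFP mean. The log2 difference, Prox1 minus GFP, was -0.57 for Actb and -0.47 for Actg1, and it was -0.42 and -0.37 after cyclic loess scaling. For every 100 counts of Actb there were 35.4 and 31.6 counts of Actg1 in Prox1 cells, against 30.4 and 32.0 in GFP cells. These ratios overlapped between the groups, so no change in the balance of the pair was seen beyond the spread between replicates.

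Reads at the actin genes were not wholly separable from overlapping features. The microRNA genes Gm23419 and Mir6935 lie inside Actg1 on the same strand. Gm23419 was at 121 and 216 in Prox1 cells, against 367 and 213 in GFP cells, and Mir6935 was at 13 and 9, against 52 and 32. Transcripts of Actg1 and of such loci cannot be told apart in these values. Of the last 500 bases of Actb, 9.3% of 50-base stretches occur in Lrrc58, a gene at 628 and 476 in Prox1 cells, against 592 and 478 in GFP cells. Of the 5 other actin genes looked up, muscle isoforms among them, 0 reached a mean of 10 normalised counts.

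The CArG box, the DNA element bound by serum response factor (SRF), is a classical control element of actin promoters. Promoter windows of 300 bases (250 before and 50 after the start, RefSeq, GRCm38.p6) covered 8 of the 9 genes, 11 windows in all. Actb was not among the 8. The exact motif occurred in 1 of these windows, that of Actg1, and in 1.63% of the 32851 windows of all genes. Its core is palindromic, so both strands were searched together. The stretch is shown because it is the only match among these promoters, with the box in capitals, 90 bases before the start on the minus strand.
Actg1 promoter (chr11:120348566-120348595): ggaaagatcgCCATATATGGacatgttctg
A match of letters is not a measured binding site. Srf, picked after its values were seen, was at 2057 and 1721 in Prox1 cells, against 1264 and 1224 in GFP cells, and did not pass the test (limma adjusted p 0.0719).

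Flnc and Flna had different patterns. Flnc (ENSMUSG00000068699, mm10 chromosome 6, positions 29433256 to 29461883, plus strand), the filamin best known from muscle, was at 2 and 2 normalised counts in Prox1 cells, against 69 and 114 in GFP cells. The Prox1 libraries were both near 0 and far below either GFP library. Mean counts were 2.0 ± 0.0 in Prox1 cells and 91.5 ± 31.8 in GFP cells (SD, n = 2 each), a 45.8-fold lower level. The exact 95% counting interval of that ratio was 17.6 to 170, treating normalised counts as reads and covering counting error only. The log2 difference was -4.90 with the deposited pseudocount of 1, and -3.74 with a pseudocount of 5. With 1 GFP library left out at a time, the ratio was 57.0 (without GFP replicate 1) and 34.5 (without GFP replicate 2).

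Flna (ENSMUSG00000031328, mm10 chromosome X, positions 74223461 to 74249820, minus strand), the widely expressed filamin, was at 1015 and 1020 in Prox1 cells, against 997 and 1805 in GFP cells. The groups overlapped, since GFP replicate 1 lay below both Prox1 libraries. Its mean was 1017.5 ± 3.54 in Prox1 cells and 1401 ± 571 in GFP cells (SD, n = 2 each). The lower mean in Prox1 cells rested on GFP replicate 2: without it the ratio of Prox1 to GFP was 1.02, and without GFP replicate 1 it was 0.564.

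Within libraries, Flnc stood at 0.197 and 0.196 counts per 100 of Flna in Prox1 cells, against 6.92 and 6.32 in GFP cells. Both Prox1 libraries thus held less Flnc relative to Flna than either GFP library. A ratio within a library does not depend on how libraries were scaled, but a ratio of counts of different genes is not a ratio of transcript levels per length.

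**Figure D2:**
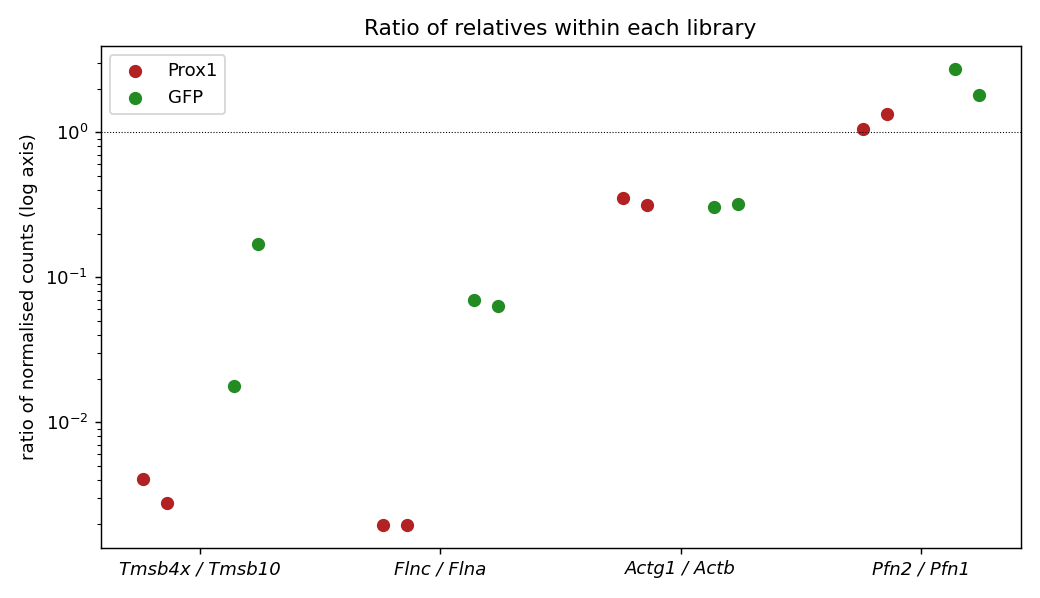
Ratio of normalised counts of related genes within each library (vertical log axis) for 4 pairs, Prox1 libraries in red and GFP libraries in green. Points are single libraries and the dotted line marks a ratio of 1. The groups are apart for every pair but Actg1 over Actb, and the GFP libraries are far apart for Tmsb4x over Tmsb10 (0.0178 and 0.17).

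The genes that lie next to Flnc and Tmsb4x on their chromosomes were read out as well, a choice made after the values were seen. Ccdc136, 6.3 kb before Flnc, was at 42 and 43 in Prox1 cells, against 80 and 94 in GFP cells, and passed the test (limma adjusted p 0.0481). Atp6v1f, a proton pump subunit gene 5.8 kb after Flnc, was at 1705 and 1649, against 1538 and 2388 (limma adjusted p 0.625). The nearest tested genes to Tmsb4x were the pseudogene Rpl7a-ps11, at a distance of 352.1 kb, and Prps2, at 137 kb. Rpl7a-ps11 was at 67 and 67, against 84 and 103 (limma adjusted p 0.308). Prps2, an enzyme gene of nucleotide synthesis, was at 37 and 34, against 95 and 120 (limma adjusted p 0.00666), so it fell in Prox1 cells.

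The thymosins differed from each other in both level and replicate spread. Tmsb4x (ENSMUSG00000049775, mm10 chromosome X, positions 167207093 to 167209315, minus strand) was at 14 and 9 in Prox1 cells, against 54 and 609 in GFP cells. Both Prox1 libraries were below both GFP libraries, but GFP replicate 2 was 11.3-fold above GFP replicate 1. Mean counts were 11.5 ± 3.54 in Prox1 cells and 331.5 ± 392 in GFP cells (SD, n = 2 each), so the SD of the GFP group exceeded its mean. The ratio of means was 28.8-fold lower in Prox1 cells. It was 4.7-fold lower without GFP replicate 2 and 53.0-fold lower without GFP replicate 1. The log2 difference was -3.90 with all libraries, -2.17 without GFP replicate 2 and -5.64 without GFP replicate 1. Since the groups did not overlap, leaving out 1 library could not reverse the direction, but the size depended on GFP replicate 2.

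Tmsb10 (ENSMUSG00000079523, mm10 chromosome 6, positions 72957347 to 72958748, minus strand) was at 3437 and 3222 in Prox1 cells, against 3030 and 3585 in GFP cells. The GFP libraries enclosed the Prox1 libraries. Means were 3329.5 ± 152 in Prox1 cells and 3307.5 ± 392 in GFP cells (SD, n = 2 each), a ratio of 1.01. Tmsb4x stood at 0.407 and 0.279 counts per 100 of Tmsb10 in Prox1 cells, against 1.78 and 17.0 in GFP cells.

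The 3′ end of Tmsb10 is not unique. Of the 50-base stretches in the last 500 bases of its transcript, 61.9% also occur in other annotated genes, mainly Gm9844 and the processed pseudogene Gm3788. The matching share was 0.0% for Tmsb4x, Flna, Flnc, Actg1, Pfn1, Pfn2 and Cfl1. Gm9844 (mm10 chromosome 7, positions 24862213 to 24862697) was at 1441 and 1114 in Prox1 cells, against 941 and 785 in GFP cells. Gm3788 (mm10 chromosome 3, positions 86672033 to 86672168, within the span of Lrba) was at 1989 and 2898 in Prox1 cells, against 3715 and 3627 in GFP cells. Neither passed the test (limma adjusted p 0.102 and 0.0996). How the authors divided reads that match several of these places is not given in the sources used here, so transcripts of Tmsb10 and reads at the copies are not separable with certainty. Added together, the 3 genes held 6867 and 7234 counts in Prox1 cells, against 7686 and 7997 in GFP cells, a ratio of means of 0.899. By sum the Prox1 libraries lay below the GFP libraries, whereas Tmsb10 alone overlapped between the groups. Gm9844 made up 21.0% and 15.4% of the sum in Prox1 cells, against 12.2% and 9.82% in GFP cells.

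**Figure D3:**
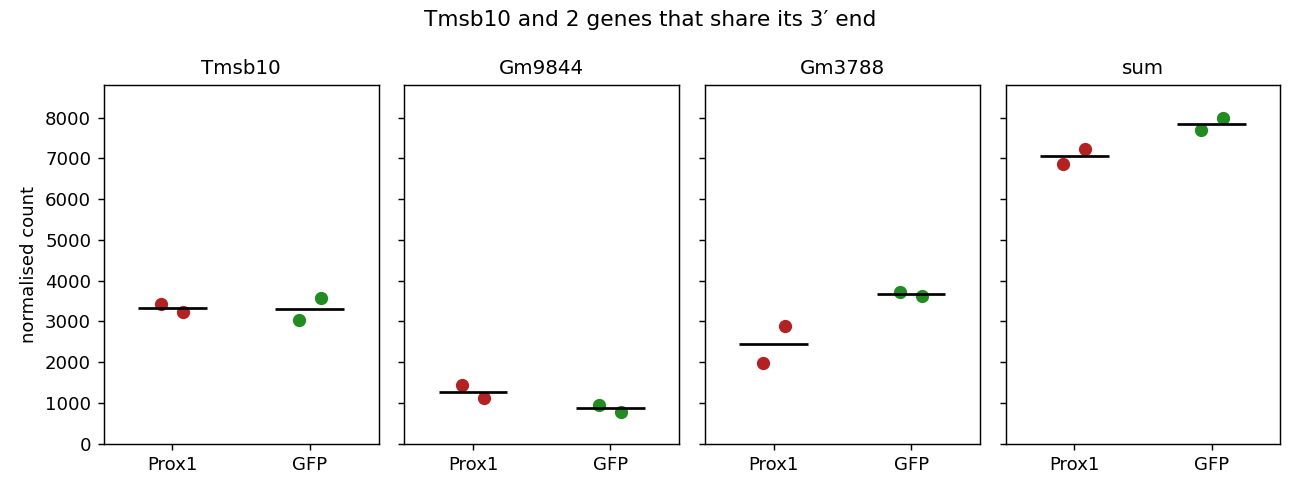
Normalised counts (vertical axis, from 0) of Tmsb10, of Gm9844 and Gm3788, which share parts of its 3′ end, and of the sum of all 3, in Prox1 (red) and GFP (green) libraries. Points are libraries and lines are means of 2. Tmsb10 overlaps between the groups, while the sum is at 6867 and 7234 in Prox1 libraries, against 7686 and 7997 in GFP libraries.

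The 2 profilins had means on opposite sides of the GFP level, and limma called neither. Pfn1 (ENSMUSG00000018293, mm10 chromosome 11, positions 70651850 to 70654644, minus strand), the profilin of most tissues, was at 365 and 316 in Prox1 cells, against 227 and 243 in GFP cells. Both Prox1 libraries were higher than either GFP library, and the ratio of means was 1.45. Pfn2 (ENSMUSG00000027805, chromosome 3, positions 57841895 to 57848079, minus strand), the profilin enriched in neurons, was at 383 and 423 in Prox1 cells, against 621 and 438 in GFP cells. Its groups did not overlap, but Prox1 replicate 2 and GFP replicate 2 were close, and the ratio of means was 0.761. Without GFP replicate 1 it was 0.92. For every 100 counts of Pfn1 there were 105 and 134 of Pfn2 in Prox1 cells, against 274 and 180 in GFP cells. The Pfn2 to Pfn1 ratio was thus lower in both Prox1 libraries, by 1.87-fold between geometric means.

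Cfl1 (ENSMUSG00000056201, mm10 chromosome 19, positions 5490455 to 5495201, plus strand), the non-muscle cofilin, was at 2411 and 2202 in Prox1 cells, against 1462 and 1414 in GFP cells. The groups were well apart, with replicates within 1.09-fold in each. The limma call of Cfl1 lay close to the threshold of 0.05, and the authors' deposited table did not pass the gene. Means were 2306.5 ± 148 in Prox1 cells and 1438 ± 33.9 in GFP cells (SD, n = 2 each), a ratio of 1.6 and a log2 difference of 0.68. The muscle-type Cfl2 was at 324 and 331, against 356 and 312, and the related Dstn at 341 and 342, against 280 and 269. Both were picked after their values were seen, and neither passed the test (limma adjusted p 0.951 and 0.351).

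The spread between replicates was set beside that of 9897 genes averaging 50 normalised counts or more. Their median distance between replicates, as an absolute log2 difference, was 0.252 in Prox1 cells and 0.266 in GFP cells. For Tmsb4x it was 0.59 in Prox1 cells and 3.47 in GFP cells. Only 8 of the 9897 genes, Tmsb4x included, had GFP libraries at least that far apart (0.0808%). Tmsb4x reached the mean of 50 only through GFP replicate 2, the library that also makes its gap. Its relative Tmsb10 had a distance of 0.09 in Prox1 cells and 0.24 in GFP cells. Actb, Actg1, Pfn1 and Cfl1 had distances of 0.02 to 0.10 between GFP libraries. Flna, Flnc and Pfn2 lay between, at 0.86, 0.72 and 0.50.

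A distance of at least 4-fold between the GFP libraries was found in 16 of the 9897 genes (0.162%), and one of at least 4-fold between the Prox1 libraries in 15 (0.152%). GFP replicate 2 was the higher library in 6 of the 16, as it was for Tmsb4x, so these genes did not share a direction. In 10 of the 16 both Prox1 libraries were below both GFP libraries, as in 29.9% of the 13290 genes averaging 10 or more. The 16 were picked for a wide GFP gap, and some, such as Met, reached the mean of 50 only through 1 GFP library. That choice favours lower Prox1 values, so nothing is read from the count. Tmsb4x was eighth in the order of distance, behind Met, Rb1, Abl1, Mir6939, Pik3ca, Idh1 and Gm4775, which were chosen after their values were seen. Met had the same GFP order as Tmsb4x, at 10 and 14834 in GFP libraries, and Rb1 and Abl1 the opposite one, at 7934 and 137 and at 22765 and 557. Whether Tmsb4x shares a source of spread with them, and whether reads of another library entered a GFP library, was not tested. What the GFP counts of Tmsb4x measure, and with them its fold difference, carries that limit.

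**Figure D4:**
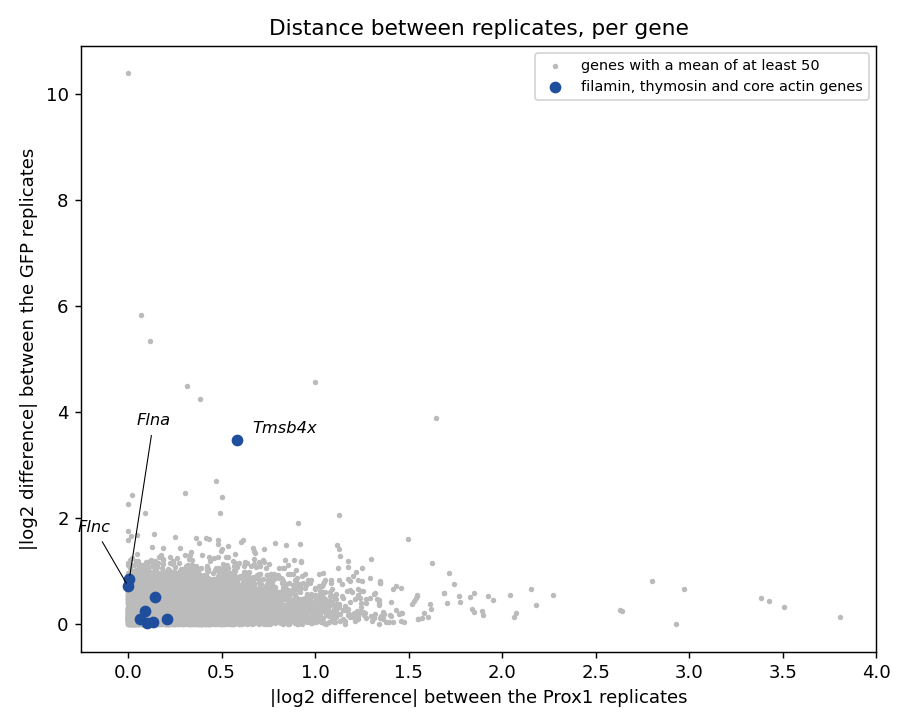
Absolute log2 difference between the Prox1 replicates (horizontal axis) and between the GFP replicates (vertical axis) of each gene, on log2(normalised count + 1). Grey points are 9897 genes averaging 50 or more and blue points are the 9 actin-related genes. Tmsb4x lies at 0.59 and 3.47, above nearly all genes, while the other 8 blue points lie below 1 on both axes.

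Genes whose pattern over the 4 libraries was most like that of Flnc or Tmsb4x were found by the Euclidean distance of centred log2 values among genes with a mean of at least 50. The nearest to Flnc was Ly75, a receptor gene, at 3 and 3 in Prox1 cells, against 137 and 138 in GFP cells, at a distance of 0.54. It was followed by Il6, Sctr, Hpcal1 and Npy at distances of 0.70 to 1.63. For Tmsb4x the nearest gene was Lama4, a laminin chain, at 11 and 14 in Prox1 cells, against 75 and 140 in GFP cells, and its distance was 2.16. Bdh2, Rgmb, Fam129a and Dazl followed at 2.31 to 2.52. All of these genes were lower in Prox1 cells, but the choice by likeness to Flnc or Tmsb4x fixed that in advance. Some, such as Ly75 and Lama4, reached the mean of 50 only through the GFP libraries. Nothing is read from their direction. None of those nearest to Tmsb4x had its 11.3-fold gap between GFP libraries. The distances are over 4 values only and are a description.

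Other actin-related genes were called in both directions, as were all genes tested (7.57% upward and 8.41% downward). Across 11 lists of other actin-related genes, 121 of 174 genes in the table reached the minimum mean, and limma passed 26 of them, 11 higher and 15 lower in Prox1 cells. That is 21.5%, beside 16.0% of all genes tested. The shares of all genes are the background for each list below, and no list was tested as a set. Of the 26, Gsn, Myh14 and Myl9 reached the minimum mean through 1 group alone. The median log2 difference of the 121 genes was 0.04, beside -0.002 for all genes tested. With any 1 library left out limma passed 0 of these genes at the adjusted threshold, as it did for all genes.

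Genes that bind actin monomers or turn filaments over had a mixed pattern, with limma calling 2 of 14 upward and 4 downward, Gsn included (median 0.12). The coactosin Cotl1 rose 2.18-fold and the monomer-binding twinfilin Twf1 1.79-fold (limma adjusted p 0.004 and 0.0455). The LIM-domain protein gene Ablim1, at 144 and 150 in Prox1 cells, against 485 and 525 in GFP cells, fell 3.44-fold (limma adjusted p 0.000424). The severing protein gene Gsn was at 4 and 0, against 22 and 15, a 9.25-fold lower level with a 95% counting interval of 3.32 to 35.7. It reached the minimum mean only through the GFP libraries, so its call is no support. Among LIM kinases, the kinases upstream of them, and cofilin phosphatases, 0 of 9 tested rose and 2 fell (median -0.20). The cofilin phosphatase Ssh1 was at 83 and 112, against 182 and 215, and fell 2.04-fold, and Pak1, a kinase that acts on LIM kinases, fell 1.74-fold (limma adjusted p 0.0216 and 0.0394). Limk1, a cofilin kinase picked after its values were seen, was at 84 and 99, against 177 and 124, and did not pass (limma adjusted p 0.114).

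Among crosslinkers other than the 9 genes, 1 of 14 rose and 2 fell (median -0.37). The spectrin gene Sptan1 rose 1.71-fold (limma adjusted p 0.0327). Lima1 fell 2.24-fold and Synpo2 3.07-fold (limma adjusted p 0.00443 and 0.0142). Fscn1, the fascin that bundles filaments in growth cone filopodia and the nearest tested gene after Actb, was picked after its values were seen. It was at 2135 and 1909 in Prox1 cells, against 3290 and 2878 in GFP cells, and did not pass (limma adjusted p 0.0741). Of 4 tested filamin binding partners 0 passed (median 0.24), and the lowest p was that of the integrin gene Itgb1, at 1127 and 819, against 1469 and 1362 (limma adjusted p 0.106).

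Genes that start filaments gave calls in both directions, and capping and tropomyosin genes gave 1 call, upward. Among all genes tested, limma called 16.0%, 7.57% upward and 8.41% downward, and no list here was tested as a set. Nothing about these lists is read from the counts of calls. Of 22 Arp2/3 complex and activator genes 2 rose and 1 fell (median 0.10). The subunit genes Arpc1b and Arpc5l rose 1.76-fold and 1.7-fold, and Cyfip2, of the WAVE complex that switches Arp2/3 on, fell 4.8-fold (limma adjusted p 0.0245, 0.0262 and 0.00262). Of 15 formins and other nucleators 2 rose, Daam1 by 2.35-fold and Fhod1 by 2.34-fold, and 1 fell, Fmnl2 by 1.67-fold (median 0.08; limma adjusted p 0.0119, 0.0306 and 0.0463). Of 13 capping and tropomyosin genes 1 rose and 0 fell (median 0.21). It was Capzb, the β subunit of the protein that caps growing filament ends, at 5794 and 4522 in Prox1 cells, against 2058 and 1685 in GFP cells, or 2.76-fold (limma adjusted p 0.00173). Its partner subunits Capza1 and Capza2, picked after their values were seen, were at 83 and 57, against 139 and 75, and at 520 and 525, against 740 and 720, and did not pass (limma adjusted p 0.298 and 0.126).

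Of 7 non-muscle myosin II genes limma called 2 upward and 0 downward (median 0.41). Both reached the minimum mean only through the Prox1 libraries, so the calls are no support. A minimum mean of 50 leaves both out, and the 5 genes that remain gave 0 calls, as they did with the lower minimum. The heavy chain gene Myh14 was at 22 and 34 in Prox1 cells, against 0 and 0 in GFP cells, which is at least 9.33-fold higher where each GFP library is set to 3 counts. The light chain gene Myl9 was at 13 and 32, against 0 and 3, or 15.0-fold higher, with 95% counting limits of 4.82 and 75.5. Of 16 ERM (ezrin, radixin and moesin) and focal adhesion genes 0 rose and 4 fell (median -0.30). Parva, a focal adhesion protein gene, was at 123 and 190, against 871 and 666, and fell 4.91-fold, and Zyx fell 1.92-fold (limma adjusted p 0.000208 and 0.0164). Of 12 genes in the list of SRF, its MRTF cofactors and well-known targets, limma called 2 upward, Myl9 included, and 2 downward (median 0.16). Besides Myl9 and Zyx, which other lists also hold, Cnn2 rose 3.52-fold and Tagln2 fell 2.1-fold (limma adjusted p 0.00131 and 0.00842).

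**Figure D5:**
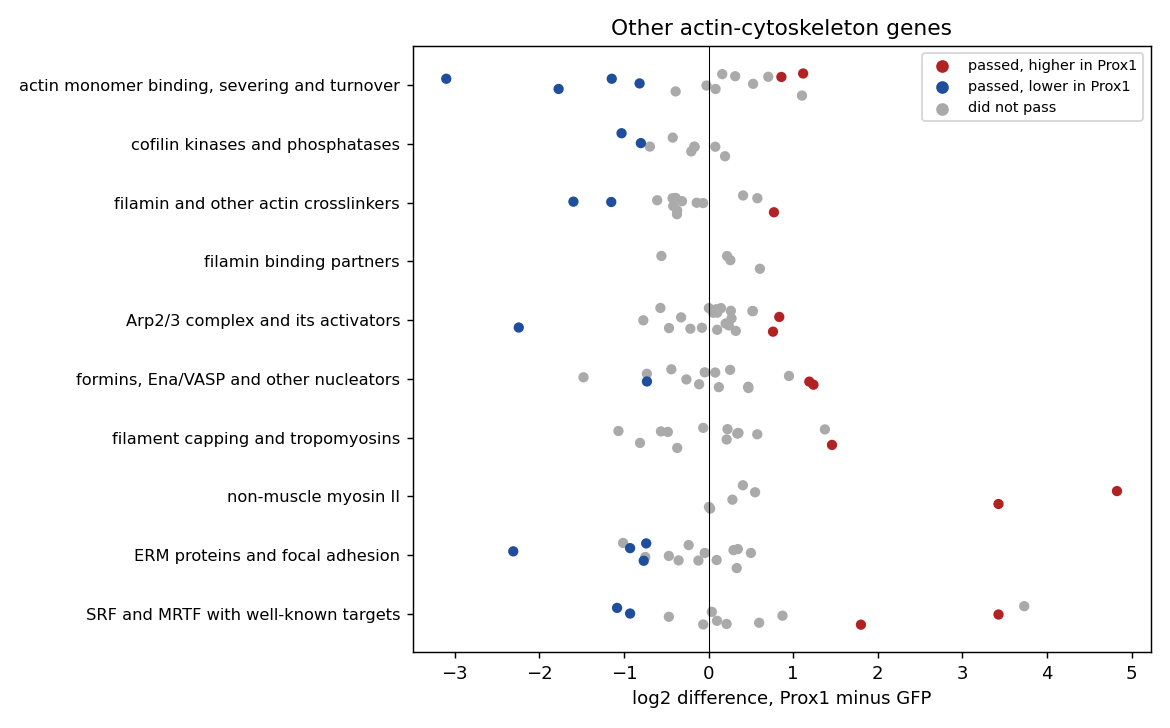
Log2 difference, Prox1 minus GFP (horizontal axis), of the tested genes of 10 lists of other actin-related genes (rows). Each point is a gene, red where it passed limma upward, blue where it passed downward and grey where it did not pass. Of all 121 genes, 11 passed upward and 15 downward.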

How the data were processed

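Per the labels' protocols, RNA with an integrity number above 7 from 4 Neuro2A samples went into QuantSeq 3′ libraries, which an Ion Proton sequenced. The deposited table gives log2(normalised count + 1) per library, rounded to whole counts before the log, per the file headers and the values. The authors used DESeq and mm10, per the submitters' processing notes. No source used here gives the aligner, the counter, its strand setting or the annotation. The authors' deposited table also holds DESeq p-values and log2 fold changes. A deposited signal per sample, which is that count over a gene length, covers 1860 genes and served only to check the log2 values.

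The values were rounded after normalisation, so no count model was run. limma 3.58.1 (R 4.3.3; lmFit, eBayes with a mean-variance trend; two-sided; Benjamini-Hochberg over 13290 genes, threshold 0.05) compared Prox1 with GFP on log2(normalised count + 1) in genes with a mean of at least 10. It was tested on simulated counts with the same relative spread set for every gene. That setting is unlike wide replicate gaps such as that of Tmsb4x, so nothing is concluded from it for such genes. Since the pseudocount shrinks differences of low genes, ratios of mean normalised counts are given. Replicates were not copies of each other: estimated reads gave a chi-square over its degrees of freedom of 21.1 in Prox1 and 22.8 in GFP cells. The p-values rest on that spread alone, which may be technical. The number of 50-base stretches shared with other transcripts was counted in GENCODE M21, one principal transcript a gene, in its own direction.

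The members and lists were chosen with earlier results of these data known. In each list, up to 2 called genes each way with the largest difference were named, or the lowest p where none passed. The 5 genes nearest to Tmsb4x and to Flnc were named. Others are marked, and 1 gene of a list is not reported here. Alternatives were scaling by TMM (own code) or cyclic loess, other minimum counts and pseudocounts, no variance trend, precision weights, the replicate block and each library left out.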

Additional observations from a re-analysis of the deposited data

How the results depend on the processing

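limma passed 2124 of 13290 genes, 26 of the 121 other actin-related genes and 3 of the 9 members. Each of these counts was 0 with any 1 of the 4 libraries left out, a range of 0 to 0 (2365 to 2981 genes, and 2 to 4 members, at an unadjusted p under 0.05), and 0 without a minimum count (5032 genes and 6 members at an unadjusted p under 0.05). Where 1 library was left out, the lone library of its group was assumed to vary like the other group. Without the variance trend the counts were 1057, 12 and 1. The authors' deposited table passed 551 genes. TMM and cyclic loess scaling, pseudocounts of 5 and 0.5, a mean of at least 50 and precision weights kept all 3 counts within 1.5-fold of these values (2 to 3 members). With a mean of at least 50 only 8 of the 9 members were tested, since Flnc fell below it. The cause of the other lower counts was not tested. Replicate numbers were shared between the groups, and deviations of same-numbered libraries showed almost no correlation (r = -0.051 over 13290 genes). A correlation over all genes cannot show a batch that acts on some genes only or in opposite directions. Whether the numbers mark pairs is therefore not known. With the replicate block limma passed 2528 genes, 31 other actin-related genes and 2 members. The log2 differences of the 9 members stayed within the spread between replicates in 68 of 72 alternatives. Leaving out 1 library shifts a difference by an amount that this spread always covers, rounding aside. Those alternatives are therefore no check of stability, and in them Tmsb4x ranged from -5.64 to -2.17. Beyond the spread were Flnc with a pseudocount of 5 (-3.74), and Actb and Actg1 with cyclic loess scaling (-0.42 and -0.37). Flnc without GFP replicate 1 (-5.26) was counted as well, but only as a rounding tie. Its Prox1 replicates were equal, and the opposite shift without GFP replicate 2 (-4.54) counted as within the spread. With cyclic loess scaling the distance between Actb replicates was 0.26 in Prox1 cells and 0.32 in GFP cells, as absolute log2 differences. The sign of the log2 difference changed for Flna (0.03 without GFP replicate 2) and for Tmsb10 (-0.11 to 0.14), neither of which was called. Among the 9 members, Flnc and Tmsb4x had the lowest Prox1 counts, at 4 and 23 normalised counts over both libraries together.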
